A study of Mus musculus with 6 samples.

Results

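The contactins and the contactin-associated proteins (Casprs) were picked out by gene symbol, as Cntn1, Cntn2, Cntn3, Cntn4, Cntn5 and Cntn6 together with Cntnap1, Cntnap2, Cntnap4 and Cntnap5a. These were 10 of the 55357 genes in the count tables, and all 10 were among the 21876 genes tested. Their transcripts were measured by RNA-seq of polyA RNA in 6 libraries of mouse primary neuronal cultures. The cultures were wild type, prepared from cortex and hippocampus of C57BL/6N embryos, transduced with lentivirus after 4 days in vitro and collected after 14 days in vitro. In 3 libraries (shCtrl) the virus carried a control or scrambled short hairpin RNA, and in the other 3 (shPla2g4e) a hairpin against Pla2g4e, which encodes a cytosolic phospholipase A2 that makes N-acyl phosphatidylethanolamines. The knockdown rests on a single hairpin, named sh2 in the study, and both groups had been exposed to virus. No label says that the libraries of a group came from separate cultures or litters, so that the p-values measure the spread between these libraries, which may be technical.

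Contactins are cell adhesion molecules of the immunoglobulin superfamily that are held in the membrane by a lipid anchor. Casprs are transmembrane proteins of the neurexin superfamily, and Cntnap1 reaches the axon surface only together with Cntn1. In myelinated axons Cntn1 and Cntnap1 form the paranodal junction beside the node of Ranvier, while Cntn2 and Cntnap2 gather Kv1 potassium channels next to it, and outside myelinated axons several of these molecules act in axon guidance, neurite growth and synapse formation.

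The libraries held 17054717 to 23570180 counted reads. Levels are given as CPM, the counts relative to library size scaled with edgeR's TMM factors, with the SD over 3 libraries, and a gene was called down- or up-regulated where edgeR's quasi-likelihood test gave a Benjamini-Hochberg adjusted p below 0.01 over all genes tested. Pla2g4e itself was lower in shPla2g4e, with a log2 fold change of -0.99 and an adjusted p of 1.24e-04. The labelled cell type was checked with marker lists: 8 pan-neuronal markers summed to 3990 to 4278 CPM in shCtrl and 3489 to 3829 CPM in shPla2g4e, and the cultures also held astrocyte markers (7 genes, 2807 to 3595 CPM and 1911 to 3083 CPM) and oligodendrocyte lineage markers (10 genes, 572 to 648 CPM and 588 to 724 CPM). Microglial markers summed to at most 4.53 CPM and mural and endothelial markers to at most 31.4 CPM in any library.

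Of the 10 genes, 5 were down-regulated in shPla2g4e and 0 were up-regulated by edgeR's test. At an unadjusted p under 0.05 the counts were 6 and 0, where 12.9% of all genes tested were lower and 12.8% higher at that level. With DESeq2 they were 6 and 0, where 1214 of all genes were down- and 687 up-regulated. With limma after voom they were 5 and 0, where 925 of all genes were down- and 503 up-regulated. The down-regulated genes were all 4 Casprs, which are Cntnap1, Cntnap2, Cntnap4 and Cntnap5a, and 1 of the 6 contactins, Cntn6. By edgeR's test 4.0% of all 21876 genes were down-regulated and 2.48% were up-regulated. The balance over all genes depended on the scaling: 876 were down- and 543 up-regulated with TMM, 708 and 624 with upper-quartile scaling, and 609 and 796 with library size alone, while the counts of 5 and 0 among the 10 genes were the same under each. The groups did not overlap, with every shPla2g4e library lower, for 6 of the 10 genes, against 14.6% of all genes tested. The median log2 fold change of the 10 genes was -0.58, that of the 4 Casprs was -0.81, that of the 6 contactins was -0.11, and that of all genes tested was 0.03. In these bulk cultures fewer cells of a type and less RNA per cell cannot be told apart.

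**Figure D1:**
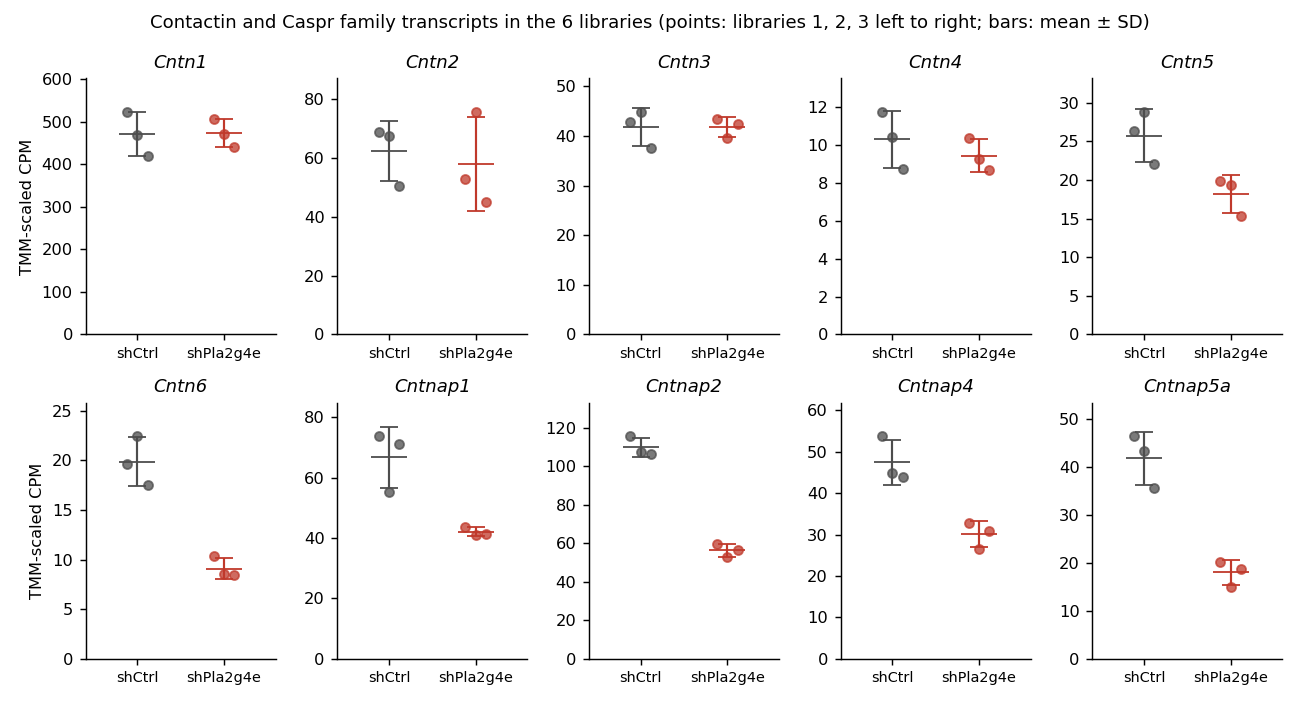
TMM-scaled CPM of each of the 10 genes, with 1 point per library (3 shCtrl in grey, 3 shPla2g4e in red) and bars for the mean ± SD, each panel on its own axis from 0. The red points lie below every grey point for Cntn5, Cntn6 and the 4 Casprs, and the groups overlap for Cntn1, Cntn2, Cntn3 and Cntn4.

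Among the contactins, Cntn1 is the partner of Cntnap1 at the paranode. Its level was 523, 469 and 419 CPM in shCtrl, against 506, 470.1 and 441 CPM in shPla2g4e. All shPla2g4e values lay inside the range of shCtrl, with means of 470.1 ± 51.9 CPM and 472 ± 32.6 CPM. The log2 fold change of Cntn1 was 0.01 (95% confidence interval -0.19 to 0.20), with an adjusted p of 0.977. Its sign depended on the processing: it was below 0 in 4 of 16 alternatives, among them both fits with DESeq2's size factors.

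Cntn2, also known as TAG-1, is the contactin that pairs with Cntnap2. It measured 68.8, 67.2 and 50.4 CPM in shCtrl and 52.7, 75.5 and 45.02 CPM in shPla2g4e. Both the highest and the lowest of the 6 values were shPla2g4e libraries, and the groups overlapped. The log2 fold change of -0.10 ± 0.15 (SE) had an adjusted p of 0.743, and its 95% confidence interval ran from -0.43 to 0.22. Without the third shPla2g4e library the log2 fold change of Cntn2 was 0.04, and it was below 0 in the other 15 of 16 alternatives.

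Cntn3 and Cntn4, which are known as axonal contactins with restricted brain expression, did not pass the test either. Cntn3 was at 42.9, 44.9 and 37.6 CPM in shCtrl and at 43.5, 39.6 and 42.4 CPM in shPla2g4e, so that the means of both groups were 41.8 CPM. Its log2 fold change was 0.0008 with an interval of -0.20 to 0.20, below 0 in 5 of 16 alternatives and above 0 in the others. Cntn4, a contactin that binds the amyloid precursor protein, was at 11.7, 10.4 and 8.70 CPM in shCtrl and 10.4, 9.25 and 8.68 CPM in shPla2g4e. These ranges overlapped, and the log2 fold change of Cntn4 was -0.12 with an interval of -0.45 to 0.21 and an adjusted p of 0.693.

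Cntn5, also called NB-2, is known from the auditory pathway and from synapses on sensory axons. It measured 26.4, 28.8 and 22.1 CPM in shCtrl and 19.9, 19.4 and 15.4 CPM in shPla2g4e. Every shPla2g4e library was below every shCtrl library, although the lowest shCtrl value and the highest shPla2g4e value were close to each other. The log2 fold change was -0.49 ± 0.13 (SE), with an adjusted p of 0.0184, and Cntn5 was not called. It passed in 4 of 16 alternatives: with the replicate number as a block (adjusted p = 9.18e-05), without the filter on low counts (0.00122), with DESeq2 (0.00767) and without the third shCtrl library (0.00933). The largest adjusted p, 0.115, was that without the second shCtrl library. Of the exon bases of Cntn5, 6.40% overlap genes on the other strand, whose reads could not be told apart in the counting.

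Cntn6, also called NB-3, orients the apical dendrites of cortical neurons together with Chl1. It had the largest fold change of the 6 contactins, at 19.6, 22.4 and 17.5 CPM in shCtrl and 10.3, 8.51 and 8.46 CPM in shPla2g4e. The groups stood well apart, and the shPla2g4e mean of 9.10 ± 1.07 CPM was 0.458 of the shCtrl mean of 19.9 ± 2.46 CPM. The log2 fold change was -1.12 ± 0.14 (SE), with an interval of -1.42 to -0.83 and an adjusted p of 6.13e-05. Behind these levels were 395 to 446 reads per shCtrl library and 148 to 247 reads per shPla2g4e library.

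Cntn6 lies between Cntn3 and Cntn4 on chromosome 6, in the order Cntn3, Chl1, Cntn6 and Cntn4. The cluster covers 4.54 Mb, with gaps of 937.5, 742.6 and 814.3 kb between neighbouring genes. In GRCm39 coordinates of the count tables Cntn3 is at chr6:102139616-102550062 on the minus strand, Cntn6 at chr6:104469751-104840367 and Cntn4 at chr6:105654621-106676271, both on the plus strand. Within the cluster only Cntn6 was called. Its neighbour Chl1, an adhesion molecule of the L1 family, went from 438 ± 40.4 to 350.2 ± 23.1 CPM with every shPla2g4e library lower, and its adjusted p was 0.0231, or 2.61e-05 with the replicate block.

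Cntnap1, the founding Caspr and the paranodal partner of Cntn1, was at 73.7, 55.2 and 71.1 CPM in shCtrl and at 43.8, 41.0 and 41.5 CPM in shPla2g4e. The shPla2g4e libraries lay close together, below the second shCtrl library, which was itself lower than the other two. The mean was 66.7 ± 10.03 CPM in shCtrl and 42.1 ± 1.49 CPM in shPla2g4e, and the log2 fold change was -0.66 ± 0.10 (SE), with an interval of -0.88 to -0.44 and an adjusted p of 4.74e-04. A gene on the other strand overlaps 3.97% of the exon bases of Cntnap1.

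Cntnap2, or Caspr2, is the partner of Cntn2 in Kv1 channel clustering and has been linked to autism and epilepsy. Its values were 116, 107 and 107 CPM in shCtrl and 59.8, 52.7 and 56.5 CPM in shPla2g4e. No shCtrl library came near the shPla2g4e range. Cntnap2 had the smallest p of the 10 genes and stood at place 35 among all genes tested, with a log2 fold change of -0.96 ± 0.08 (SE) and an adjusted p of 2.18e-06.

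Cntnap4, or Caspr4, which is known to act in transmitter release from interneurons, was at 53.8, 44.8 and 43.9 CPM in shCtrl and at 32.8, 26.6 and 31.0 CPM in shPla2g4e. All shPla2g4e libraries were lower than all shCtrl libraries. Its log2 fold change was -0.66 ± 0.11 (SE), with an adjusted p of 6.79e-04. Other-strand genes overlap 8.01% of its exon bases, the highest share among the 10 genes.

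Cntnap5a, one of several rodent genes related to human CNTNAP5, had the largest log2 fold change of the 10 genes. It measured 46.4, 43.4 and 35.6 CPM in shCtrl and 20.2, 15.0 and 18.7 CPM in shPla2g4e. The shPla2g4e mean of 18.004 ± 2.69 CPM was 0.431 of the shCtrl mean of 41.8 ± 5.58 CPM, and the groups stood well apart. The log2 fold change was -1.21 ± 0.13 (SE), with an interval of -1.48 to -0.95 and an adjusted p of 1.25e-05.

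The 3 Caspr genes outside this selection went different ways. Cntnap3 went from 15.0 ± 2.12 to 7.78 ± 1.08 CPM and was down-regulated, with a log2 fold change of -0.95 ± 0.15 (SE) and an adjusted p of 6.72e-04. Cntnap5b, at 6.71 ± 1.46 and 3.72 ± 1.19 CPM, was lower in every shPla2g4e library but had an adjusted p of 0.0306. Cntnap5c, at 8.28 ± 1.57 and 11.6 ± 0.778 CPM, was higher in every shPla2g4e library, with a log2 fold change of 0.48 and an adjusted p of 0.0585. With the replicate block Cntnap5b was called lower (adjusted p = 2.49e-04) and Cntnap5c higher (0.00466).

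**Figure D2:**
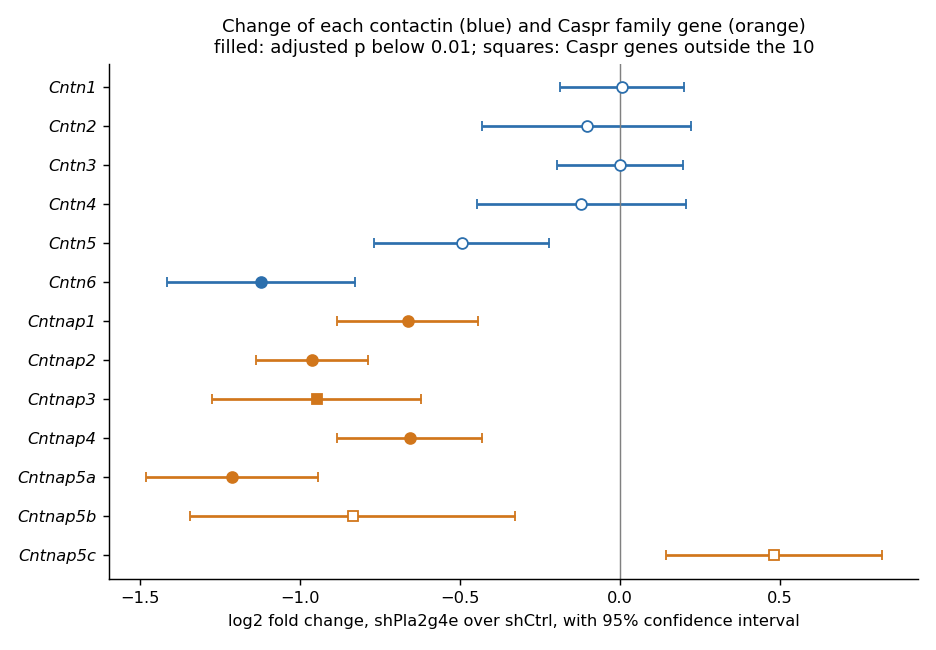
Log2 fold change of shPla2g4e over shCtrl with its 95% confidence interval for the 6 contactins (blue) and 7 Caspr genes (orange), filled where the adjusted p was below 0.01 and square for Cntnap3, Cntnap5b and Cntnap5c. The intervals of Cntn1, Cntn2, Cntn3 and Cntn4 include 0, and Cntnap5c is the 1 Caspr gene to the right of 0.

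For the level of one gene against another, CPM was divided by the exon length of each gene in kilobases. In shCtrl Cntn1 was the most abundant of the 10 genes, at 49.8 ± 5.51 CPM per kb. Cntnap1 (11.3 CPM per kb) and Cntnap2 (10.7 CPM per kb) followed far below, and their ranges overlapped. Next came Cntnap4 (7.56), Cntn2 (6.68), Cntn3 (6.21) and Cntn5 (5.69 CPM per kb), each of which overlapped in range with its neighbour in this order. Cntnap5a (3.82) and Cntn6 (3.06 CPM per kb) overlapped as well, and Cntn4 was lowest at 1.21 CPM per kb, apart from Cntn6.

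In shPla2g4e the first and last places were again those of Cntn1 (50.1 CPM per kb) and Cntn4 (1.11 CPM per kb). By the group means Cntnap1 was second at 7.17 CPM per kb, and its range was apart from that of Cntn3 (mean 6.21 CPM per kb). In the second shPla2g4e library Cntn2, at 8.12 CPM per kb, stood above Cntnap1, at 6.98 CPM per kb, and the range of Cntn2 (4.84 to 8.12) took in that of Cntnap1 (6.98 to 7.45 CPM per kb). Cntnap2 (5.49 CPM per kb) and Cntnap4 (4.79 CPM per kb), which had stood above Cntn2 and Cntn3 by their means in shCtrl, now stood below both, with ranges that overlapped between Cntn2, Cntnap2, Cntnap4 and Cntn5 as neighbours. Cntnap5a (1.65 CPM per kb) and Cntn6 (1.4 CPM per kb) overlapped again, and Cntn6 was still apart from Cntn4.

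The 4 Casprs together summed to 36.6, 31.0 and 32.7 CPM per kb in shCtrl and to 20.4, 17.7 and 19.2 CPM per kb in shPla2g4e, without overlap. The 6 contactins summed to 79.4, 74.6 and 64.0 CPM per kb in shCtrl and to 72.9, 70.5 and 63.6 CPM per kb in shPla2g4e, which overlapped. Between libraries of equal replicate number both sums were lower in shPla2g4e in 3 of 3 pairs, by a mean log2 difference of -0.07 for the contactins and -0.81 for the Casprs, and an exact sign-flip test over the pairs gave p = 0.25 for each, the smallest that 3 pairs allow. Cntn1 alone made up 45.9% to 47.8% of the summed level of the 10 genes in shCtrl and 56.4% to 57.5% in shPla2g4e.

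**Figure D3:**
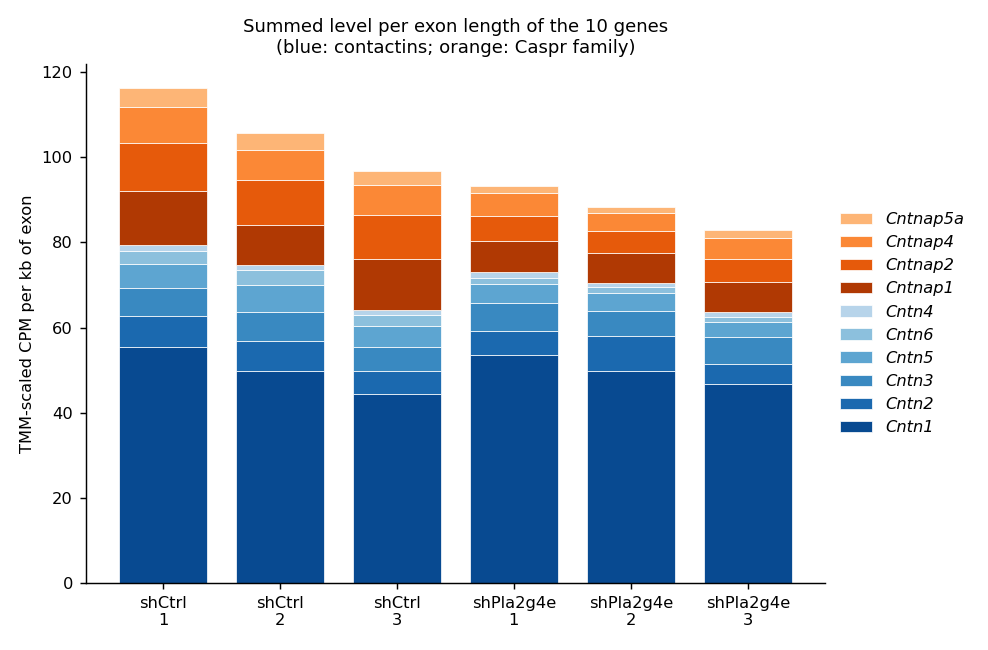
Stacked bars of CPM per kb of exon for the 10 genes in each of the 6 libraries, contactins in blue and Casprs in orange. The orange part is between 31.0 and 36.6 CPM per kb in the shCtrl libraries and between 17.7 and 20.4 CPM per kb in the shPla2g4e libraries, and the blue part overlaps between the groups.

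Because the Casprs work as pairs with contactins, the ratio of the levels per length was taken for 3 known pairs within each library. Cntnap1 over Cntn1 was 0.227, 0.189 and 0.273 in shCtrl and 0.139, 0.140 and 0.151 in shPla2g4e. Cntnap2 over Cntn2 was 1.52, 1.45 and 1.92 in shCtrl and 1.03, 0.633 and 1.14 in shPla2g4e. Both ratios were lower in every shPla2g4e library, and for each the two-sided exact permutation test gave p = 0.1, the smallest that 3 libraries against 3 allow, and 0.15 after Benjamini-Hochberg adjustment over the 3 pairs. Cntnap4 over Cntn5, in which both genes were lower in shPla2g4e, was 1.47, 1.12 and 1.43 in shCtrl and 1.19, 0.990 and 1.45 in shPla2g4e, with overlapping groups and an exact p of 0.6. Between libraries of equal replicate number the first 2 ratios were lower in shPla2g4e in 3 of 3 pairs (exact sign-flip p = 0.25 each) and Cntnap4 over Cntn5 in 2 of 3 (p = 0.5).

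The hairpin gave a sequence with which the family could be compared. A guide strand can act on other transcripts through its seed, bases 2 to 8 from its 5′ end, mostly at sites in the 3′ UTR and less in coding sequence. The sh2 target in Pla2g4e and the guide strand are shown 5′ to 3′, with the seed and its site in capitals.
sh2 target: ggaagatggtgGTGGCCAa
sh2 guide strand: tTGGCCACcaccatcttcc
The site GTGGCCA was searched on the sense strand of the transcripts of GENCODE vM21. It was in a 3′ UTR of 0 of the 10 genes, against 2289 of 15705 tested genes with both annotated regions (14.6%), and in a coding sequence of 4 of the 10, against 26.1% of those 15705 genes. Of all genes with the site in a 3′ UTR 16.5% were down-regulated, of those with it in coding sequence only 5.69%, and of those with it in neither 2.85%.

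In the Casprs the coding site fell at the same place. The coding sequences of the 7 Caspr genes were aligned through their codons, and the stretches aligned with the site of Cntnap1 are shown to set the genes that hold it beside those that do not, with the 7 bases at the place of the site in capitals.
Cntnap1: gatccgggctGTGGCCAcacagggagc
Cntnap2: gatcagtgccATTGCAAcccaaggaag
Cntnap3: ggtcactgctGTGGCCAcccagggtgg
Cntnap4: agtcacgtccGTGGCCAcccaaggtgg
Cntnap5a: gattacagctGTAGCCAcacagggaag
Cntnap5b: gattacagcaGTGGCCAcacagggaag
Cntnap5c: gattacagctGTGGCTAcccagggaag
In Cntnap1 the site is at bases 256 to 262 of the coding sequence, at chr11:101177506-101177512 on the plus strand of GRCm38, and in Cntnap4 at chr8:112665190-112665196 on the plus strand. All 7 bases were present in Cntnap1, Cntnap3, Cntnap4 and Cntnap5b, against 6 in Cntnap5a, 6 in Cntnap5c and 4 in Cntnap2. The 4 genes with all 7 bases had log2 fold changes of -0.66 (Cntnap1), -0.95 (Cntnap3), -0.66 (Cntnap4) and -0.84 (Cntnap5b, not called). The 3 without them, which held the site nowhere else in the annotated coding sequence or 3′ UTR, were at -0.96 (Cntnap2), -1.21 (Cntnap5a) and 0.48 (Cntnap5c, not called). Values of the genes with and without the site thus overlapped, and the difference between them was not tested. The annotated 3′ UTR of Cntnap5c is only 13 bases long, so that little sequence was searched there.

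Among the contactins the site was in the coding sequence of Cntn4 and Cntn5, at unrelated places, and it is shown here with its surroundings.
Cntn4: tgatatccacGTGGCCAtggaagagag
Cntn5: attccgagtgGTGGCCAccaatccaat
These lie at chr6:106523542-106523548 on the plus strand and chr9:9743638-9743644 on the minus strand of GRCm38. Cntn6, the down-regulated contactin, held the site in neither region, and the same was true of Cntn1, Cntn2 and Cntn3. The longest annotated 3′ UTR of Cntn6 is only 179 bases, so that a site in an unannotated part would be missed. A match of letters does not show binding, and the part of the seed in the changes of these genes was not tested.

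The 10 genes are mostly very long. Their spans in the count tables were 20.2 kb for Cntnap1, 33.8 kb for Cntn2 and 290.8 to 2244.9 kb for the other 8, with Cntnap2 the longest. Of the 8 long genes 4 were down-regulated, namely Cntn6, Cntnap2, Cntnap4 and Cntnap5a. Among all genes whose log2 CPM averaged 3 or more and which span at least 250 kb, 19.8% of 585 were down-regulated and 3.76% up-regulated, with a median log2 fold change of -0.15, against 7.61% and 3.37% of the 11018 genes with that expression. Cntnap1 was down-regulated at a short span, and Cntn1, Cntn3, Cntn4 and Cntn5 were not called at long spans. The part of gene length in the changes was not tested.

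Markers of cell types were read beside the 10 genes. The 6 glutamatergic markers, all of which passed the filter, summed to 2089 to 2267 CPM in shCtrl and 1515 to 1818 CPM in shPla2g4e, with 2 down-regulated (Slc17a7 and Neurod6) and 1 up-regulated (Slc17a6). Most of that difference was Slc17a7, the vesicular glutamate transporter 1 gene, at 745 ± 97.0 CPM in shCtrl and 300 ± 11.2 CPM in shPla2g4e. The other 5 summed to 1345 to 1460 CPM in shCtrl and 1225 to 1521 CPM in shPla2g4e, which overlapped. The 10 GABAergic markers summed to 832 to 912 CPM and 802 to 901 CPM, which overlapped, with 2 down- and 2 up-regulated. Of the 7 astrocyte markers 2 were down-regulated (1 with DESeq2). Of the 10 oligodendrocyte lineage markers 0 were called by edgeR or DESeq2 (1 at an unadjusted p under 0.05, lower, against 12.9% of all genes tested). DESeq2 called 3 glutamatergic markers lower and 0 higher, so that Slc17a6 was not called by it. Of the 8 pan-neuronal markers 3 were down-regulated and 2 up-regulated. By edgeR's test 4.0% of all genes tested were down- and 2.48% up-regulated. With the replicate block 6 of the 7 astrocyte markers and 1 of the 10 oligodendrocyte lineage markers were down-regulated, with 0 up-regulated in either list. Of all genes tested the block called 9.02% down- and 6.50% up-regulated. The block gave 3 down- and 1 up-regulated glutamatergic, 3 and 3 GABAergic, and 4 and 3 pan-neuronal markers. The part of culture composition in the levels of the 10 genes was not tested.

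Genes that are known to work with contactins and Casprs were described with 7 lists, of which 36 genes were tested and 1 was not analysed here. Of the 36 genes 6 were down-regulated and 0 up-regulated by edgeR's test (19 and 3 at an unadjusted p under 0.05, against 12.9% and 12.8% of all genes tested, 10 and 0 with DESeq2, 7 and 0 with limma after voom), with a median log2 fold change of -0.19, and 26 of 36 were lower in shPla2g4e. With the replicate block 17 were down-regulated and 2 up-regulated, where 9.02% and 6.50% of all genes tested were called.

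The proteins nearest to the contactins in structure are those of the L1 family, immunoglobulin adhesion molecules that bind ankyrin and contactins. All 4 (L1cam, Chl1, Nrcam and Nfasc) had lower values in every shPla2g4e library, with a median log2 fold change of -0.32, and 1 was called. Of all genes tested 14.6% were lower without overlap and 4.0% were down-regulated. The share down-regulated was 7.61% among genes with log2 CPM averaging 3 or more. DESeq2 called 3 of the 4, limma after voom 2 and the replicate block all 4. L1cam went from 396 ± 32.5 to 271 ± 12.4 CPM, with a log2 fold change of -0.55 and an adjusted p of 3.64e-04. Nrcam, a partner of Cntn2, went from 527 ± 28.4 to 424 ± 20.5 CPM with an adjusted p of 0.0155, and of 5.19e-05 with the block, which gave 5.14e-04 for Nfasc.

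In the axonal cytoskeleton ankyrins, spectrins and protein 4.1B tether these complexes and sodium channels. Of its 8 genes 4 were down-regulated, against 4.0% of all genes and 7.61% of those with log2 CPM averaging 3 or more. DESeq2 and limma after voom called 4 each, and the replicate block 6, with Ank3 (adjusted p = 1.13e-04) and Scn8a (0.00471) added. Sptbn1, a beta spectrin, went from 1455 ± 103 to 957 ± 75.5 CPM, and its log2 fold change was -0.61 (adjusted p = 2.30e-04). Ank2, ankyrin-B, went from 1200 ± 71.8 to 817 ± 69.9 CPM, and its log2 fold change was -0.55 (adjusted p = 4.60e-04). The other called genes were Sptan1, an alpha spectrin (adjusted p = 0.00501, past the threshold in 10 of 16 alternatives), and the sodium channel gene Scn2a (0.00228, in 13 of 16), and the median of the list was -0.34. All 6 down-regulated partner genes held the sh2 site in some annotated transcript. Sptbn1 and Ank2 held it in a 3′ UTR, and Cntnap3, L1cam, Sptan1 and Scn2a in coding sequence alone. The site was also in 14 of the 30 partner genes that were not called (3 in a 3′ UTR). Of the 15705 tested genes with both regions annotated, 14.6% held it in a 3′ UTR, 21.5% in coding sequence only and 63.9% in neither. In the 3′ UTR of the longest transcript alone, 2 of the 36 partner genes held it, against 13.4% of all genes. Transcript length was not taken into account, and the part of the seed in the changes of the partner genes was not tested.

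The juxtaparanodal Kv1 complex, which Cntnap2 assembles with Cntn2, had 0 of 9 genes called by edgeR's test, with a median log2 fold change of -0.08. At an unadjusted p under 0.05 there were 4 lower and 2 higher genes of 9, against 12.9% and 12.8% of all genes tested, and DESeq2 called 1 lower and limma after voom 0. Adam22, a receptor of the Lgi proteins in that complex, went from 262 ± 21.99 to 208 ± 19.0 CPM with an adjusted p of 0.0226, or 2.17e-05 with the replicate block. Kcnab1, a channel beta subunit, went from 55.8 ± 3.83 to 67.5 ± 7.34 CPM with an adjusted p of 0.0683, or 0.00505 with the block. Dlg4 was also called lower with the block, at a log2 fold change of -0.20 and an adjusted p of 0.00928.

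The remaining lists had 0 calls in edgeR's test and 0 in limma after voom, while DESeq2 called 1 of the adaptors lower. At an unadjusted p under 0.05 there were 1 of the phosphatase and matrix ligands, 0 of the amyloid precursor group and 2 of the adaptors, all lower. The phosphatase and matrix ligands of contactins had a median log2 fold change of 0.02 over 4 genes, with Ptprz1, which binds Cntn1, at -0.27 (adjusted p = 0.166) and Tnc, a matrix ligand, at 0.05 (0.862). For the 5 genes of the amyloid precursor family, Notch1 and Adgrl1 the median was -0.05, with Adgrl1 at -0.14 (adjusted p = 0.321) and Aplp1 at 0.13 (0.349). The 3 cytoplasmic adaptors had a median of -0.27, with Apba1 at -0.29 (adjusted p = 0.0332) and Fyn at -0.27 (0.0945). With the block Ptprz1 (3.27e-04), Apba1 (2.31e-04) and Fyn (6.42e-04) were called lower.

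**Figure D4:**
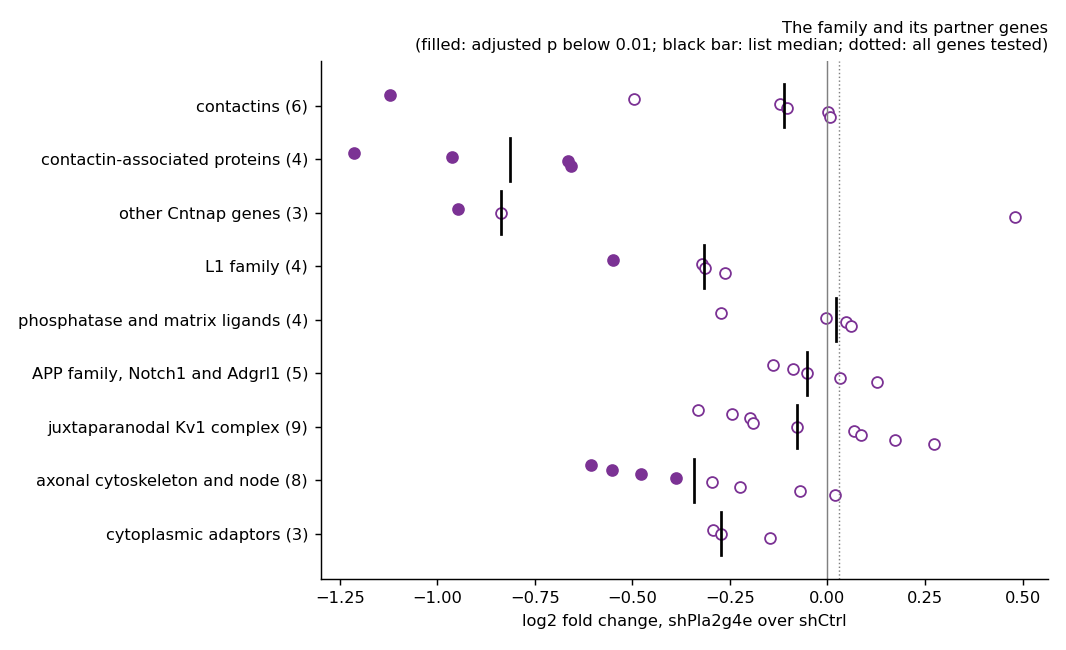
Log2 fold change of shPla2g4e over shCtrl for each gene of the contactins, the Casprs and the 7 partner lists, filled where the adjusted p was below 0.01, with a black bar at the median of each list. The list medians run from -0.84 for the other Cntnap genes to 0.02 for the phosphatase and matrix ligands, and all filled points lie to the left of 0.

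As a description of the pattern over the 6 libraries, the log2 CPM of the 11017 other genes that averaged 3 or more was correlated with that of Cntnap2. The most alike were Wiz, Sult4a1 and Nsfl1c, each with a Pearson r of 0.999. Wiz went from 138 ± 12.9 to 46.8 ± 3.34 CPM, Sult4a1 from 277 ± 10.5 to 143 ± 12.2 CPM and Nsfl1c from 83.0 ± 2.56 to 55.7 ± 1.27 CPM. For each of these genes, as for Cntnap2, the 6 points fall into the 2 groups of libraries.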

How the data were processed

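The authors checked reads with FastQC 0.11.8, aligned them with STAR 2.7.0d and deposited raw counts per gene over exons from featureCounts 1.6.0, per the labels and the file headers. The study's methods name mm10 and GENCODE M18, whereas the file headers carry GENCODE vM28 and GRCm39. Coordinates of genes are GRCm39 as deposited, and those of seed sites GRCm38. Symbols, 3′ UTRs and coding sequences came from GENCODE vM21 through gene identifiers (52081 of 55357 matched), and the hairpin sequence from the study's list of oligonucleotides. No strand or read-pair option is recorded for the counting, so that reads of overlapping genes on the other strand were not separated and each read of a pair counted by itself.

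Differential expression was computed from the counts with edgeR 4.0.16 in R 4.3.3 (TMM, estimateDisp, glmQLFit, glmQLFTest) over the genes that had 6 or more reads in any library (21876), with Benjamini-Hochberg adjustment at 0.01. CPM per kb is CPM divided by the deposited exon length. Libraries of a group differed by more than the sampling noise (chi-square per gene 6.03 to 15.4). The labels give replicate numbers but do not say that equal numbers mark a shared culture or batch. After subtracting group means, libraries with equal numbers correlated at 0.393, 0.188 and 0.460. Those with unequal numbers correlated at -0.392 to 0.106, both over 11018 genes. The replicate block and the pairs of libraries rest on these numbers, and whether they mark true pairs was not tested. The alternatives were a replicate block, limma 3.58.1 after voom, DESeq2 1.42.0, other scalings, filters and thresholds, and fits without each single library. The script was tested on simulated data. The 10 genes, partner lists and markers were chosen with earlier results of these data known. All 10 genes and Pla2g4e are named, in each partner list those with the smallest p in edgeR's test (2, or all 3 of the other Cntnap genes), and the 3 genes most like the one with the smallest p. Chl1, Nfasc, Sptan1, Scn2a, Ank3, Scn8a, Dlg4, Slc17a7, Slc17a6 and Neurod6 were named beyond this rule after their values were seen. The same holds for Gad1, Gad2, Slc32a1, Lhx6, Sst and Npy.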

Additional observations from a re-analysis of the deposited data

How the results depend on the processing

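Of 160 values of the 10 genes over 16 alternatives, 156 stayed on their side of the threshold without a called gene changing direction, and 4, all of Cntn5, newly passed it. Cntn6, Cntnap1, Cntnap2, Cntnap4 and Cntnap5a passed in all 16. The count of down-regulated genes among the 10 was 5 or 6 in every alternative, and that of up-regulated genes 0. The median log2 fold change of the 10 ran from -0.63 to -0.50, and all 10 were lower in 4 alternatives: DESeq2, its size factors in edgeR, and the fits without the third shCtrl or the first shPla2g4e library. The comparison of ratios and sums within pairs was added after seeing the data. Scaling by library size alone put the median of all genes at 0.10 and turned their balance of calls, to 609 down- and 796 up-regulated.

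The partner genes moved more. Of them 12 were down-regulated without the filter, 10 with DESeq2, 12 at a threshold of 0.05, and 17, with 2 up-regulated, under the replicate block. Leaving out 1 library gave 4 to 10 (10 without the third shCtrl library). Over all genes, 876 down- and 543 up-regulated became 1360 and 989 without the filter, 1973 and 1422 under the replicate block, and 1599 and 1214 at 0.05. Leaving out 1 library gave 449 to 932 down-regulated and 246 to 681 up-regulated genes, the fewest without the second shCtrl library. The replicate block changed no other call of the 10 genes than that of Cntn5. The 10 genes had 148 (Cntn6) to 12091 (Cntn1) reads per library, so that counting error is widest for Cntn6 and Cntn4.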
